A study of Homo sapiens with 12 samples.

Results

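The genes described here are 10 members of the cytosolic DNA sensing pathway, CGAS, STING1, IFI16, AIM2, TREX1, SAMHD1, ENPP1, TBK1, IKBKE and IRF3, out of 60617 genes in the count table. They were chosen by name, with earlier results of these data known, and each matched 1 row (STING1 under its older annotation name TMEM173). The study sequenced RNA of A549, a human lung adenocarcinoma cell line, in 12 libraries that form 4 groups of 3. YTHDF1-KO cells carried a knockout of YTHDF1, a reader of N6-methyladenosine marks on RNA. In si-ARID1A cells, small interfering RNA targeted ARID1A, which belongs to the SWI/SNF complex that remodels chromatin. YTHDF1-KO.si-ARID1A cells, called the combined group here, had both changes, and WT cells had neither. All 4 groups were grown in the same medium, and no further treatment is labelled. The knockout is named as such in the genotype field and the design text, but the titles speak of a knockdown. Whether those cells were 1 clone or pooled is not labelled, and a control small interfering RNA is not named either. The titles number the libraries as biological replicates without saying whether they came from separate cultures, so p-values measure the spread between these libraries, which may be in part technical.

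In this pathway, double-stranded DNA in the cytosol activates the enzyme cGAS, which makes the second messenger cyclic GMP-AMP (cGAMP). cGAMP binds STING, an adaptor protein of the endoplasmic reticulum, which moves to the Golgi and recruits the kinase TBK1. TBK1, and its relative IKK-epsilon, encoded by IKBKE, phosphorylate the transcription factor IRF3, which then switches on interferon genes. Nucleases such as TREX1 remove DNA before it is sensed, and ENPP1 hydrolyses cGAMP outside the cell.

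Promoter sequence is shown for 2 members, since the interferon regulatory factors that this pathway activates bind a known DNA motif. RefSeq windows on GRCh38.p14, of 250 bases before to 50 bases after the start, were at hand for 7 of the 10 members. Motifs were searched on both strands as an ISRE-like motif, GAAA then any 2 bases then GAAA, and a GAS-like motif, TTCNNNGAA, which 3.57% and 7.66% of 35116 promoter windows held. Of the 5 members that were higher than WT in at least 2 of the 3 changed groups (STING1, IFI16, SAMHD1, ENPP1 and IRF3), 3 had windows, and none of these held either motif. A shorter IRF core, AANNGAAA, was added after that search, and 22.8% of all windows held it. Of the 7 members with windows, IFI16, AIM2 and IKBKE held the core, in IKBKE as TTTCTCTT before the start, and SAMHD1, ENPP1, TBK1 and TREX1 did not. The core thus stood in 1 of the 3 higher members with windows, and also in IKBKE, which passed in no comparison with WT. IFI16 has 2 windows on the plus strand of chromosome 1. AIM2, on the minus strand of chromosome 1, was chosen after the values were seen, as the member with an ISRE-like match. Capitals mark the matches, which overlap in the second IFI16 window and in AIM2, where the ISRE-like and the core match share bases.
IFI16, chr1:159008741-159009040: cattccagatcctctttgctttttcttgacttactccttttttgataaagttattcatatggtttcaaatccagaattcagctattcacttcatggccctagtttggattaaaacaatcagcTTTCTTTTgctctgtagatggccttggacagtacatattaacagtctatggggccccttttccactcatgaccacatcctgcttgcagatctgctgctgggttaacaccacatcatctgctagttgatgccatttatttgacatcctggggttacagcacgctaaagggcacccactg
IFI16, chr1:159009657-159009956: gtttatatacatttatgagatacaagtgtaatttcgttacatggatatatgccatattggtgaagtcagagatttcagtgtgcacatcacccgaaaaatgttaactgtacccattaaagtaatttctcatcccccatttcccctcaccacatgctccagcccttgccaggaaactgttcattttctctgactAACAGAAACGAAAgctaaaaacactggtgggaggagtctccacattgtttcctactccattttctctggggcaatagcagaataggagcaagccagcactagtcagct
AIM2, chr1:159076717-159077016: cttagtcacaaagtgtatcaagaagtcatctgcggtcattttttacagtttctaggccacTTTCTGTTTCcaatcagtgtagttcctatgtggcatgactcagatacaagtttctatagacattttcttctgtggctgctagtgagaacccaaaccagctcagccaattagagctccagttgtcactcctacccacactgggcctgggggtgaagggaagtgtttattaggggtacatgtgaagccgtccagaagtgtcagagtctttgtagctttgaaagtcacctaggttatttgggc
In the second IFI16 window the core starts at 58 and again at 53 bases before the start, as AACAGAAACGAAA, and in AIM2 the ISRE-like match TTTCTGTTTC reads on the other strand and begins 190 bases before the start. A match describes letters in a window and does not show binding.

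Library totals ran from 30220717 to 45042635 counts. Levels are CPM, counts scaled to the library's total with TMM factors, and tests are edgeR's quasi-likelihood test over 18524 genes, with Benjamini-Hochberg adjustment and a threshold of 0.05. The targeted transcripts fitted their labels: YTHDF1 was at 24.9 CPM in YTHDF1-KO, 97.9 CPM in si-ARID1A, 30.9 CPM in the combined group and 88.2 CPM in WT. ARID1A was at 161 CPM in YTHDF1-KO, 42.5 CPM in si-ARID1A (25.9% of WT), 54.2 CPM in the combined group (33.1% of WT) and 164 CPM in WT. WT replicate 2 stood apart from the other WT libraries, with 4.85% of its counts on mitochondrial genes against 7.90% and 8.23%. Summed markers of alveolar cells stayed at or under 0.302 CPM in every library, and summed epithelial markers ran over 3538 to 3806 CPM in YTHDF1-KO, 6905 to 8353 CPM in si-ARID1A, 3898 to 4205 CPM in the combined group and 7793 to 9951 CPM in WT. Because the samples are bulk RNA, a change in the share of cells that express a gene and a change in RNA per cell cannot be told apart.

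Small counts need care in this table. Of all values from 1 to 50, 68.4% were even, and a count of 2 occurred 31410 times across genes and libraries against 11389 times for a count of 1. A count is therefore not always 1 independent molecule, and intervals from counts are too narrow to that extent. They cover counting error only. Intervals here are 95% exact (Clopper-Pearson) intervals.

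CGAS, the DNA sensor that makes cGAMP, had few counts in any library and most of them in the si-ARID1A group. It had 4, 0 and 8 raw counts in the YTHDF1-KO libraries, 10, 32 and 16 in si-ARID1A, 4, 2 and 4 in the combined group, and 4, 0 and 0 in WT. Summed, these are 12 counts in YTHDF1-KO (0.106 CPM on unscaled totals, interval 0.0546 to 0.184), 58 in si-ARID1A (0.582, 0.442 to 0.752), 10 in the combined group (0.0914, 0.0438 to 0.168) and 4 in WT (0.0325, 0.00887 to 0.0833). Each si-ARID1A library was above all 9 others, while the 3 remaining groups overlapped. CGAS passed the filter on low counts only through its si-ARID1A libraries, the group where it is high, so tests of that group against others are given as values and support nothing here. The fitted log2 difference from WT was 3.99 in si-ARID1A (SE 0.682, adjusted p = 0.00214, and 0.000422 in the fit with no filter on low counts). It was 1.55 in YTHDF1-KO (adjusted p = 0.314) and 1.30 in the combined group (adjusted p = 0.388), neither past the threshold. All 9 nonzero counts of CGAS were even. With WT replicate 1 left out, WT is at 0 and the fitted change in si-ARID1A is 7.45, so its size is poorly set. Standard errors come from log2 CPM with a prior count of 2, which shrinks differences at low counts, so for CGAS they may be too small. The CGAS gene lies on chromosome 6, 73413515 to 73452276 (minus strand, GRCh38, as are all gene positions here, from GENCODE 29).

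The same limit holds for the other comparisons with si-ARID1A. The log2 difference of CGAS between the combined group and si-ARID1A was -2.69 (SE 0.522, adjusted p = 0.0186, and 0.0172 with no filter). That between YTHDF1-KO and si-ARID1A was -2.44 (SE 0.833, adjusted p = 0.023, and 0.0266 with no filter), in a comparison added after the data were seen. The first of these calls was lost without si-ARID1A replicate 2 (adjusted p = 0.15), combined replicate 2 (0.101) or combined replicate 3 (0.0625). The second was lost without si-ARID1A replicate 2 (0.173), YTHDF1-KO replicate 1 (0.0788) or YTHDF1-KO replicate 2 (0.118).

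**Figure D1:**
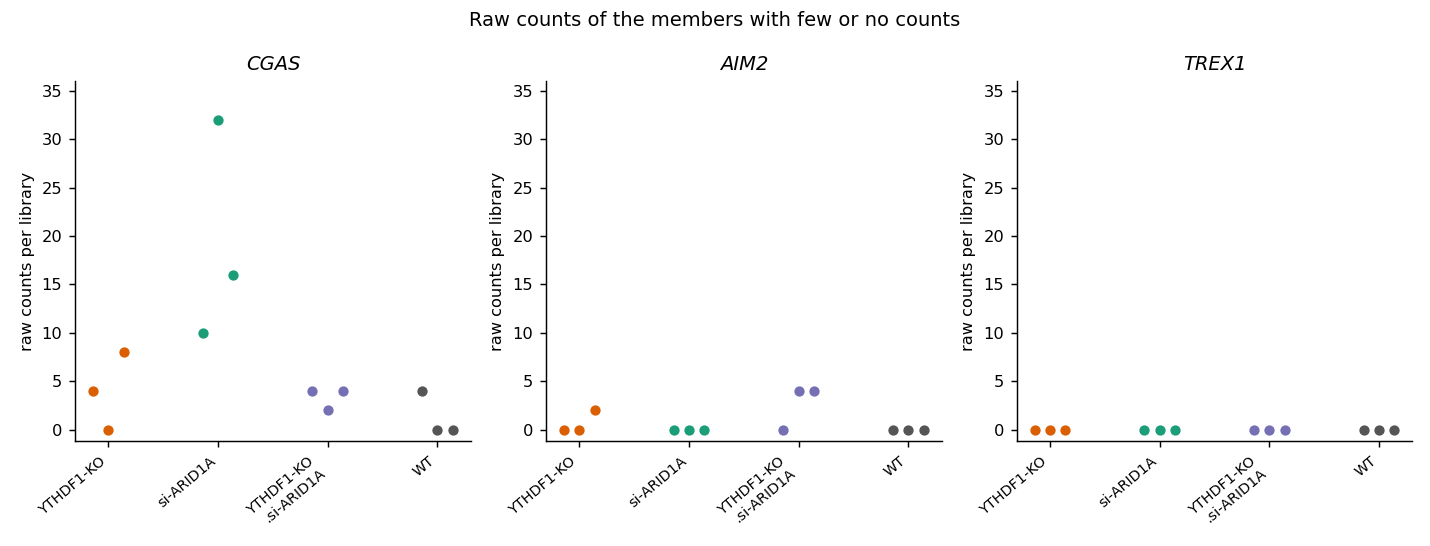
Raw counts per library (vertical axis) of CGAS, AIM2 and TREX1 in the 4 groups, 1 point a library. CGAS reaches 10 to 32 counts in si-ARID1A and at most 8 elsewhere, AIM2 reaches 4 counts in the combined group, and TREX1 is at 0 in all 12 libraries.

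IFI16, a DNA-binding sensor of the PYHIN family that acts in the nucleus and the cytosol, was higher than WT in all 3 changed groups and highest in the combined group. The YTHDF1-KO libraries had 4.56, 5.2 and 4.16 CPM, those of si-ARID1A 3.57, 4.2 and 4.43, those of the combined group 13.2, 14.4 and 14.7, and those of WT 1.55, 1.86 and 1.54. The combined libraries stood above all others and the WT libraries below all others, and the 2 groups with 1 change overlapped. IFI16 rose 2.80-fold in YTHDF1-KO (log2 1.48, SE 0.127, adjusted p = 5.69e-08), 2.45-fold in si-ARID1A (1.29, SE 0.127, adjusted p = 7.39e-07) and 8.50-fold in the combined group (3.09, SE 0.0982, adjusted p = 3.09e-14). The combined group was also 3.04-fold above YTHDF1-KO (log2 1.60, adjusted p = 8.58e-09) and 3.47-fold above si-ARID1A (log2 1.79, adjusted p = 3.84e-10). Between YTHDF1-KO and si-ARID1A the difference of 0.19 (SE 0.132, adjusted p = 0.326) did not pass. IFI16 lies on chromosome 1, 158999968 to 159055155, on the plus strand, and shares no exon bases with another gene.

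AIM2, the PYHIN sensor that builds an inflammasome, lies next to IFI16, at 159062484 to 159147096 on the minus strand, and had few or no counts. It had 0, 0 and 2 counts in YTHDF1-KO, 0, 4 and 4 in the combined group, and 0 in all libraries of si-ARID1A and WT. It did not pass the filter and was not tested. A count of 0 allows up to 3 counts in a library, which is 0.0663 to 0.0942 CPM.

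STING1, the adaptor, showed the same order of groups as IFI16 at a lower level. Its raw counts were 64, 56 and 39 in YTHDF1-KO, 32, 34 and 34 in si-ARID1A, 158, 154 and 168 in the combined group, and 4, 22 and 14 in WT. As mean ± SD (n = 3) these are 1.38 ± 0.291 CPM in YTHDF1-KO, 1.01 ± 0.0496 CPM in si-ARID1A, 4.27 ± 0.674 CPM in the combined group and 0.342 ± 0.211 CPM in WT. No library of 1 group overlapped another group. STING1 rose 4.01-fold in YTHDF1-KO (log2 2.0, SE 0.608, adjusted p = 6.17e-05), 2.95-fold in si-ARID1A (1.56, SE 0.585, adjusted p = 0.00129) and 12.4-fold in the combined group (3.63, SE 0.598, adjusted p = 2.27e-09). These standard errors are larger than those between changed groups, given next, and 1 WT library had 4 counts. Only 2 of 3 WT libraries reached the level that the filter on low counts asks for, 0.276 CPM. STING1 thus passed the filter only through the changed groups, where it is high. Its calls against WT are given as values and are no support.

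Against groups with 1 change, STING1 in the combined group was 3.09-fold above YTHDF1-KO (log2 1.63, SE 0.214, adjusted p = 0.000156) and 4.2-fold above si-ARID1A (2.07, SE 0.136, adjusted p = 5.13e-06). The difference between YTHDF1-KO and si-ARID1A, 0.44 (SE 0.175, adjusted p = 0.271), did not pass. STING1 lies on chromosome 5, 139475534 to 139482935, on the minus strand, and its exons overlap no other gene. The gene stayed low: per kilobase of exon, its level was at the 37.0th percentile of tested genes in the combined group and at the 7.77th in WT. Of all genes tested, 9.40% were higher than WT in all 3 changed groups. In addition, 1.88% were higher in the combined group than in either group with 1 change. These are 348 genes, among them IFI16 and, with the limit of the filter given above, STING1.

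Blood cells express both STING1 and IFI16, so 7 of their markers are given here. Of these, CD3E had 4 counts in WT and 0 elsewhere, and the pan-leukocyte gene PTPRC summed to 0 counts in YTHDF1-KO, 4 in si-ARID1A, 2 in the combined group and 8 in WT. The summed level of the 7 was 2.80 to 2.90 CPM in YTHDF1-KO, 6.06 to 9.24 CPM in si-ARID1A, 3.73 to 4.29 CPM in the combined group and 2.52 to 3.64 CPM in WT. It was carried mostly by ITGAM, and it was highest in si-ARID1A. CSF1R had 12 counts in YTHDF1-KO, 20 in si-ARID1A, 47 in the combined group and 4 in WT. In the same order of groups, CD68 had 5, 4, 10 and 1 counts, LYZ 0, 1, 4 and 0, and CD14 40, 56, 53 and 66.

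Among 5 fibroblast markers, some moved with the groups. LUM, a proteoglycan of the matrix, had the same order of groups as STING1 and IFI16, at means of 6.58 CPM in YTHDF1-KO, 3.03 CPM in si-ARID1A, 9.03 CPM in the combined group and 0.0837 CPM in WT. The collagen gene COL3A1 was high in both groups with the knockout, at 5.88 CPM in YTHDF1-KO, 0.417 CPM in si-ARID1A, 5.79 CPM in the combined group and 0.174 CPM in WT. DCN and PDGFRB stayed under 1 CPM in each group mean. The summed level of the 5, of which COL1A1 held most, overlapped between groups, at 43.4 to 50.8 CPM in YTHDF1-KO, 24.2 to 45.3 CPM in si-ARID1A, 33.8 to 53.5 CPM in the combined group and 31.8 to 57.2 CPM in WT. All 5 had counts in every group.

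The 4 endothelial markers summed to 0.0968 to 0.524 CPM in YTHDF1-KO, 0 to 0.177 CPM in si-ARID1A, 0.533 to 0.580 CPM in the combined group and 0.126 to 0.531 CPM in WT. PECAM1 averaged 0.213 CPM in YTHDF1-KO, 0.0615 CPM in si-ARID1A, 0.538 CPM in the combined group and 0.0711 CPM in WT. CDH5 was at 0 counts in all libraries but those of WT, where it summed to 12, and KDR was at 0 in the combined group and WT. The part of such markers in the values of STING1 and IFI16 was not tested.

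The kinases differed little between groups. TBK1, the kinase that phosphorylates IRF3, averaged 55.1 ± 4.54 CPM in YTHDF1-KO, 52.2 ± 3.71 CPM in si-ARID1A, 59.3 ± 3.09 CPM in the combined group and 51.1 ± 1.73 CPM in WT (SD, n = 3 each). Against WT, the difference passed in the combined group, at 0.21 on the log2 scale (SE 0.052, adjusted p = 0.0241), and this call was lost without WT replicate 1 (adjusted p = 0.0706), without combined replicate 1 (0.096) or 3 (0.0672), and with a scaling that left out chromosomes 2 and 9 (0.0699). In YTHDF1-KO the change was 0.11 (adjusted p = 0.292) and in si-ARID1A 0.03 (adjusted p = 0.796). Of the exon bases of TBK1 (chromosome 12, 64451880 to 64502108), 14.7% lie opposite an antisense gene, and the strand setting of the counting is not given in the sources used here.

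IKBKE, which encodes IKK-epsilon, averaged 13.7 ± 1.5 CPM in YTHDF1-KO, 12.2 ± 0.949 CPM in si-ARID1A, 11.1 ± 0.351 CPM in the combined group and 12.7 ± 0.609 CPM in WT. None of the 3 comparisons with WT passed. It was lower in the combined group than in YTHDF1-KO, by a log2 change of -0.31 (SE 0.0971, adjusted p = 0.0419). That call held in 15 of 23 settings, and was lost without either of YTHDF1-KO replicates 1 and 3 (adjusted p = 0.18 and 0.152), without combined replicate 1, 2 or 3 (0.111, 0.0678 and 0.126), with library totals as scaling (0.103), with no filter on low counts (0.0737) and with a replicate block (0.052). Per kilobase of exon, TBK1 stood above IKBKE by a ratio of 3.20 ± 0.174 in YTHDF1-KO, 3.42 ± 0.502 in si-ARID1A, 4.28 ± 0.337 in the combined group and 3.22 ± 0.165 in WT.

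IRF3, the transcription factor at the end of this chain, was higher than WT by small amounts. Its libraries had 90.6, 94.9 and 88.5 CPM in YTHDF1-KO, 83.9, 85.9 and 86.7 CPM in si-ARID1A, 104.9, 95.3 and 92.0 CPM in the combined group, and 86.4, 76.0 and 70.0 CPM in WT. Its log2 rise was 0.24 in YTHDF1-KO (SE 0.0932, adjusted p = 0.0135) and 0.33 in the combined group (SE 0.105, adjusted p = 0.000701), and was 0.14 above WT in si-ARID1A (adjusted p = 0.131). The YTHDF1-KO call was lost without WT replicate 3 (adjusted p = 0.0832) or YTHDF1-KO replicate 2 (0.065). IRF3 (chromosome 19, 49659569 to 49665875) shares 734 of 3794 exon bases, 19.3%, with BCL2L12 on the opposite strand. BCL2L12 itself changed by 0.06 in YTHDF1-KO (adjusted p = 0.678), -0.24 in si-ARID1A (adjusted p = 0.0439) and -0.05 in the combined group (adjusted p = 0.666).

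SAMHD1, a triphosphohydrolase that lowers the pool of deoxynucleotides, was highest in the combined group. It had 30.8, 28.5 and 28.0 CPM in YTHDF1-KO, 25.1, 26.2 and 25.0 CPM in si-ARID1A, 42.8, 42.0 and 45.9 CPM in the combined group, and 24.8, 22.1 and 26.8 CPM in WT. The combined libraries lay above all others, and si-ARID1A overlapped WT. SAMHD1 rose 1.78-fold in the combined group (log2 0.83, SE 0.0891, adjusted p = 1.12e-08) and 1.19-fold in YTHDF1-KO (0.25, SE 0.0904, adjusted p = 0.0225). In si-ARID1A it was 0.05 above WT (SE 0.0828, adjusted p = 0.65). The YTHDF1-KO call was lost without WT replicate 2 (adjusted p = 0.0905), without YTHDF1-KO replicate 1 (0.114) and with a scaling that left out chromosomes 2 and 9 (0.0532). The combined group was above YTHDF1-KO by 0.58 (SE 0.058, adjusted p = 1.36e-05) and above si-ARID1A by 0.78 (SE 0.0452, adjusted p = 7.2e-08). SAMHD1 lies on chromosome 20, 36889773 to 36951901, with 10.3% of its exon bases opposite TLDC2.

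ENPP1, the enzyme that hydrolyses cGAMP outside the cell, was higher in both groups with the YTHDF1 knockout. It had 12.3, 11.1 and 13.6 CPM in YTHDF1-KO, 6.95, 5.95 and 7.42 CPM in si-ARID1A, 13.2, 11.8 and 13.0 CPM in the combined group, and 7.70, 6.28 and 10.0 CPM in WT. Both groups with the knockout lay above both groups without it. ENPP1 rose 1.55-fold in YTHDF1-KO (log2 0.63, SE 0.211, adjusted p = 0.00086) and 1.59-fold in the combined group (0.67, SE 0.200, adjusted p = 0.000342), and was at -0.23 in si-ARID1A (SE 0.215, adjusted p = 0.222). Without WT replicate 2, that last change was -0.36 (adjusted p = 0.0479). The combined group was 0.90 above si-ARID1A (SE 0.105, adjusted p = 2.28e-05) and 0.04 above YTHDF1-KO (SE 0.096, adjusted p = 0.887). YTHDF1-KO was 0.86 above si-ARID1A (SE 0.125, adjusted p = 2.75e-05). ENPP1 lies on chromosome 6, 131808016 to 131895155.

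TREX1, the exonuclease that degrades cytosolic DNA, is listed at 0 in all 12 libraries. All 1515 exon bases of TREX1 (chromosome 3, 48465811 to 48467645) lie inside exons of ATRIP on the same strand, so a read from TREX1 also matches ATRIP, and the setting for such reads is not given in the sources used here. ATRIP had 383 to 631 counts a library. The 0 can therefore not be read as absence of TREX1 RNA, and no level of TREX1 is given.

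**Figure D2:**
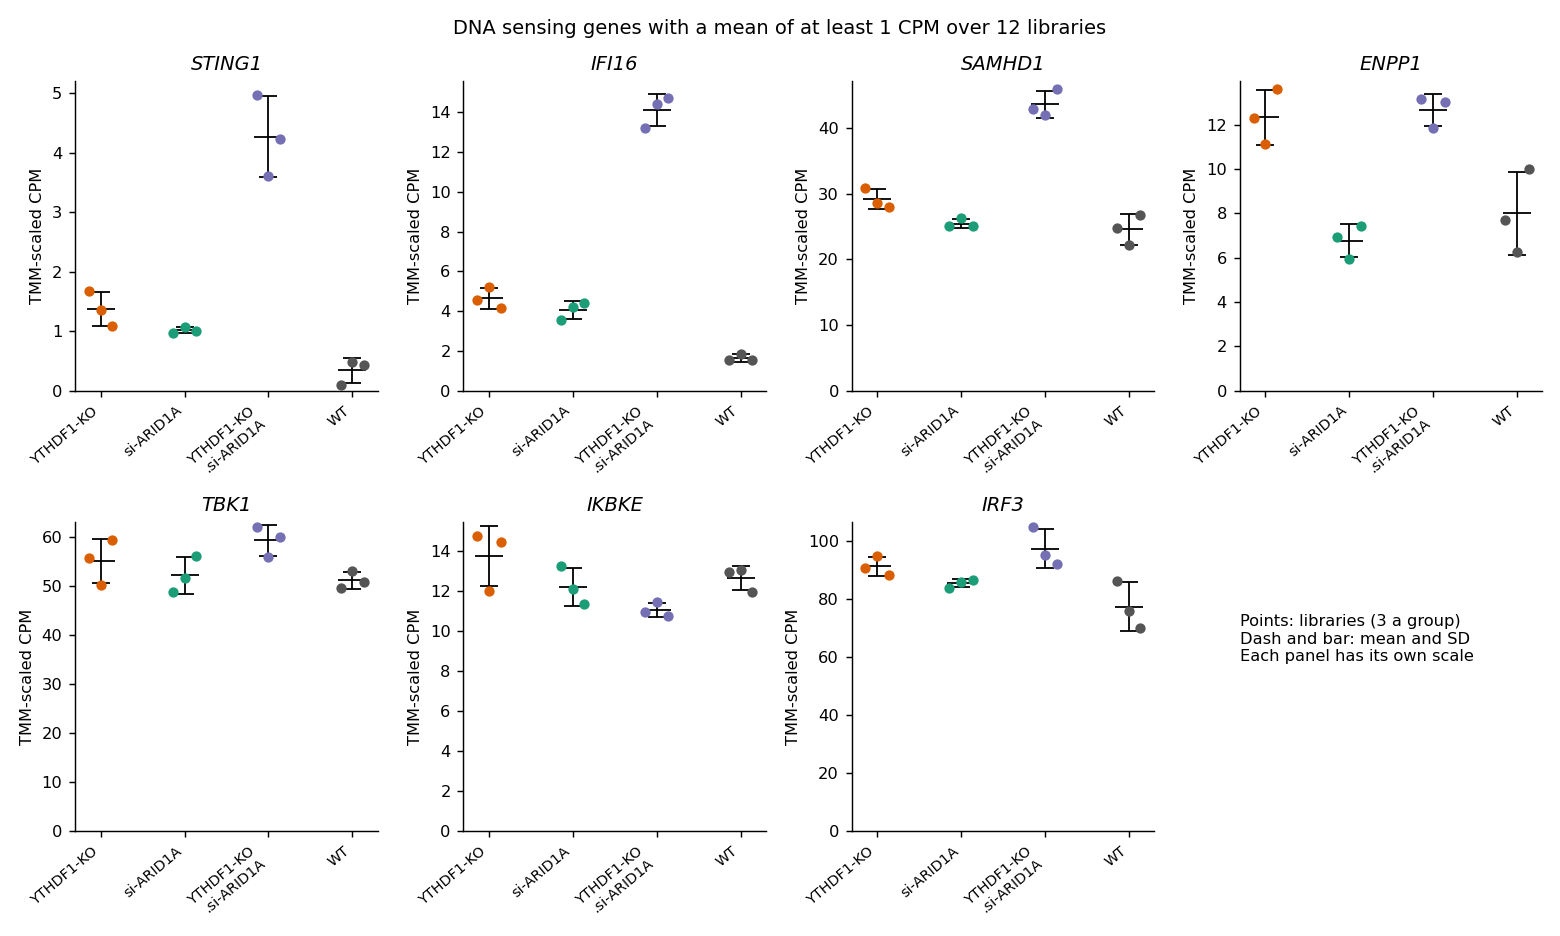
TMM-scaled CPM (vertical axis, each panel with its own scale from 0) of 7 members by group, with 1 point a library and the mean and SD of 3 libraries as dash and bar. STING1, IFI16 and SAMHD1 are highest in the combined group, at means of 4.27, 14.1 and 43.6 CPM, ENPP1 is high in both groups with the knockout, at 12.3 and 12.7 CPM, and TBK1, IKBKE and IRF3 vary little.

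The counts of members that changed are read against the whole table, in which much changed. Of the 7 members that averaged 1 CPM or more across all libraries, which leaves out CGAS, 5 were higher and 0 lower in YTHDF1-KO, where 19.6% of all genes tested were called higher and 20.8% lower. In si-ARID1A 2 were higher and 0 lower, against 22.1% and 23.0% of all genes. In the combined group 6 were higher and 0 lower, against 25.6% and 25.9% of all genes. The libraries of the 2 groups did not overlap for 5 members in YTHDF1-KO, 2 in si-ARID1A and 7 in the combined group, against 48.7%, 50.2% and 56.2% of all genes tested. STING1, which passed the filter only through the changed groups, is counted in each of these numbers of higher and of not overlapping members. It is no support there. The median log2 change of the 7 was 0.25 in YTHDF1-KO, 0.05 in si-ARID1A and 0.67 in the combined group, where the medians of all genes were -0.01, -0.01 and -0.01. With WT replicate 2 left out, the numbers called, here with CGAS, were 4 in YTHDF1-KO, 4 in si-ARID1A, of which ENPP1 was lower, and 6 in the combined group. With scaling by library totals, the share of called genes that were higher moved to 61.2% in YTHDF1-KO and 63.4% in the combined group, against 48.5% and 49.7% with TMM scaling, and the median of all genes in the combined group to 0.13.

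Between the combined group and YTHDF1-KO, 3 of these 7 members were higher and 1 lower, where 12.5% of all genes were higher and 10.9% lower. Between the combined group and si-ARID1A, 4 were higher and 0 lower, where 18.2% were higher and 17.2% lower. Library totals moved the share of called genes that were higher to 63.5% in the first of these and 62.2% in the second, against 53.5% and 51.3%. Between YTHDF1-KO and si-ARID1A 1 member, ENPP1, was higher and 0 lower, where 22.4% of genes were higher and 22.8% lower. Members whose libraries did not overlap numbered 4, 5 and 4 in these 3 comparisons, against 43.7%, 48.3% and 56.3% of all genes. These comparisons share groups and are not independent of each other.

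**Figure D3:**
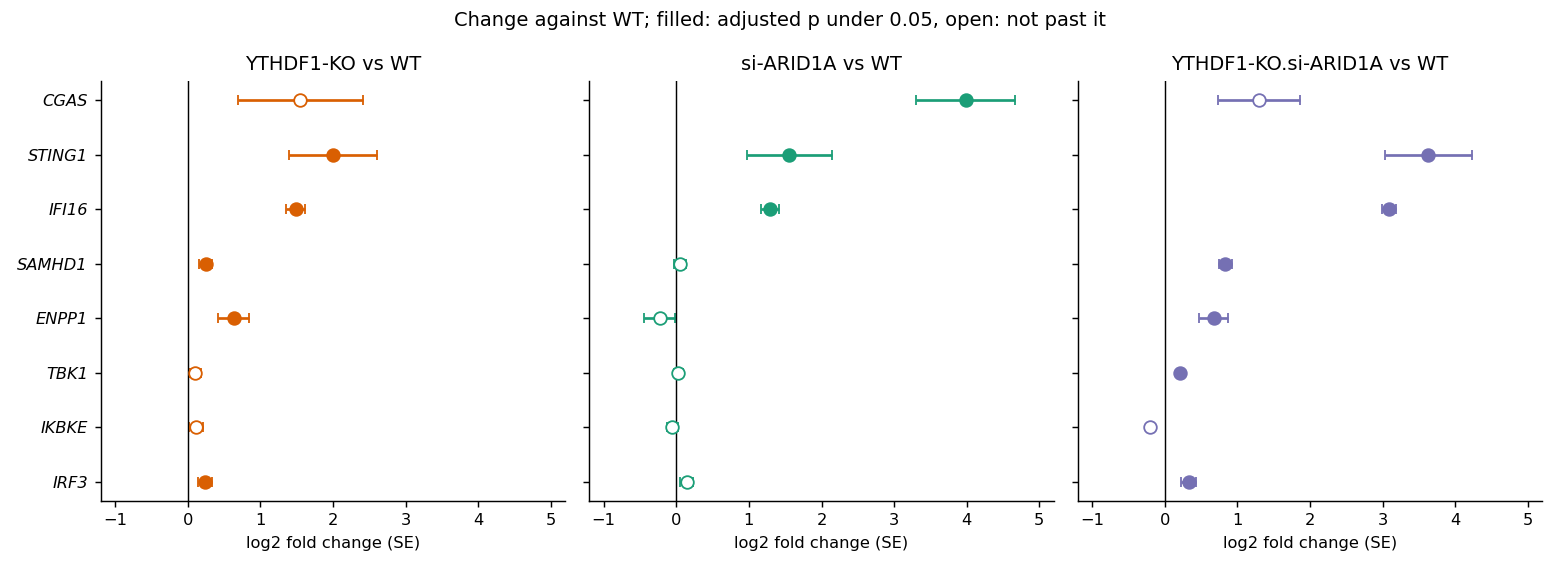
Log2 fold change against WT (horizontal axis, bars are SE) of the 8 members tested, in YTHDF1-KO, si-ARID1A and the combined group, with filled points where the adjusted p was under 0.05. STING1 and IFI16 are right of 0 in all 3 panels, CGAS is filled in si-ARID1A only, and the widest bars belong to CGAS and STING1, the members with the fewest counts.

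Whether the 2 changes added up on the log2 scale was tested as an interaction, the difference of the combined group and YTHDF1-KO minus the difference of si-ARID1A and WT. The targeted transcripts were less reduced in the combined group. There, ARID1A was 0.35 above si-ARID1A (log2, adjusted p = 0.00214) and YTHDF1 0.31 above YTHDF1-KO (adjusted p = 0.00323). Whether this enters the interactions was not tested. Of the 7 members with a mean of at least 1 CPM, 1 was above and 0 below additivity on the log2 scale, where 8.87% of all genes were above and 8.22% below. SAMHD1 exceeded the sum of the single changes by 0.53 (SE 0.101, adjusted p = 0.00305): the single changes sum to 0.30, and the combined change was 0.83. This call held in 22 of 22 settings. CGAS, which the si-ARID1A libraries brought into the test, had an interaction of -4.24 (SE 1.01, adjusted p = 0.048), with 5.54 for the sum and 1.30 for the combined group. The CGAS value passed the threshold in 9 of 20 settings. It missed it without any 1 of 10 libraries, all but WT replicate 1 and YTHDF1-KO replicate 2, with adjusted p up to 0.267, and with a replicate block (0.0707). No departure from additivity is read from it.

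For STING1 and IFI16 the combined change lay close to the sum of the single ones. The STING1 sum was 3.56 and the combined change 3.63, an interaction of 0.07 (SE 0.623, adjusted p = 0.956), and this standard error leaves room for a departure in either direction. The IFI16 sum was 2.78 and the combined change 3.09, an interaction of 0.31 (SE 0.164, adjusted p = 0.388). ENPP1 had a sum of 0.40 and a combined change of 0.67 (interaction SE 0.236, adjusted p = 0.426). TBK1, IKBKE and IRF3 had interactions of 0.08, -0.26 and -0.05, none past the threshold.

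**Figure D4:**
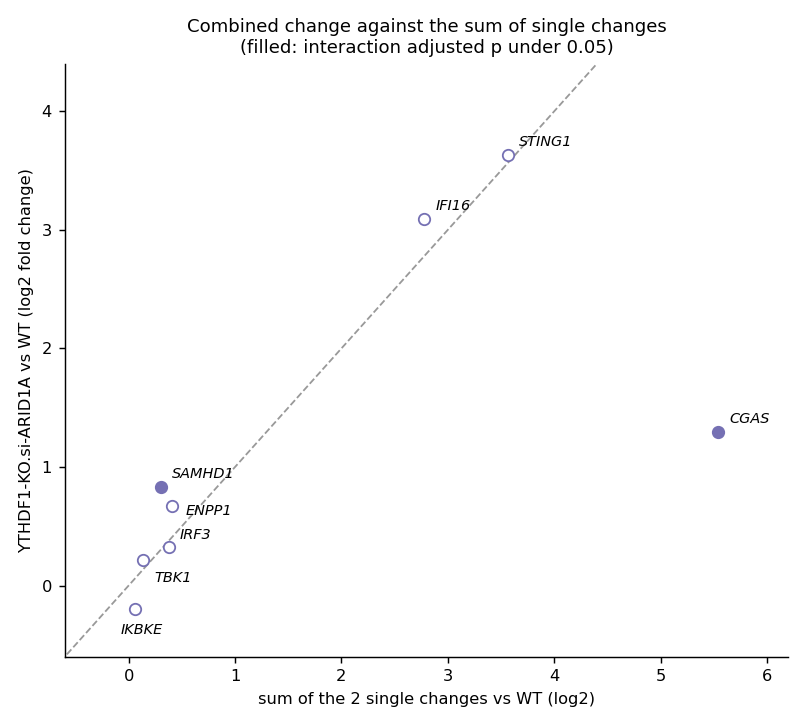
Log2 change of the combined group against WT (vertical axis) over the sum of the changes in YTHDF1-KO and si-ARID1A (horizontal axis) for the 8 members tested, with a dashed line where both are equal. SAMHD1 lies above the line and CGAS, at 5.54 and 1.30, far below it (filled, interaction adjusted p under 0.05), and STING1 and IFI16 lie near it.

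Members with a mean of at least 1 CPM were ordered by level per kilobase of exon. In WT and YTHDF1-KO the order from high to low ended with IFI16 and STING1. In WT it was IRF3 at 20.4 CPM per kilobase, TBK1 at 10.7, IKBKE at 3.34, SAMHD1 at 2.18, ENPP1 at 0.803, IFI16 at 0.311 and STING1 at 0.0889. In YTHDF1-KO the order was the same, with IFI16 at 0.876 and STING1 at 0.357. In si-ARID1A IFI16, at 0.768, and ENPP1, at 0.680, changed places, and their libraries overlapped. In the combined group SAMHD1, at 3.87, passed IKBKE, at 2.92, and IFI16, at 2.66, passed ENPP1, at 1.27, while STING1 reached 1.11 and its libraries overlapped those of ENPP1.

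**Figure D5:**
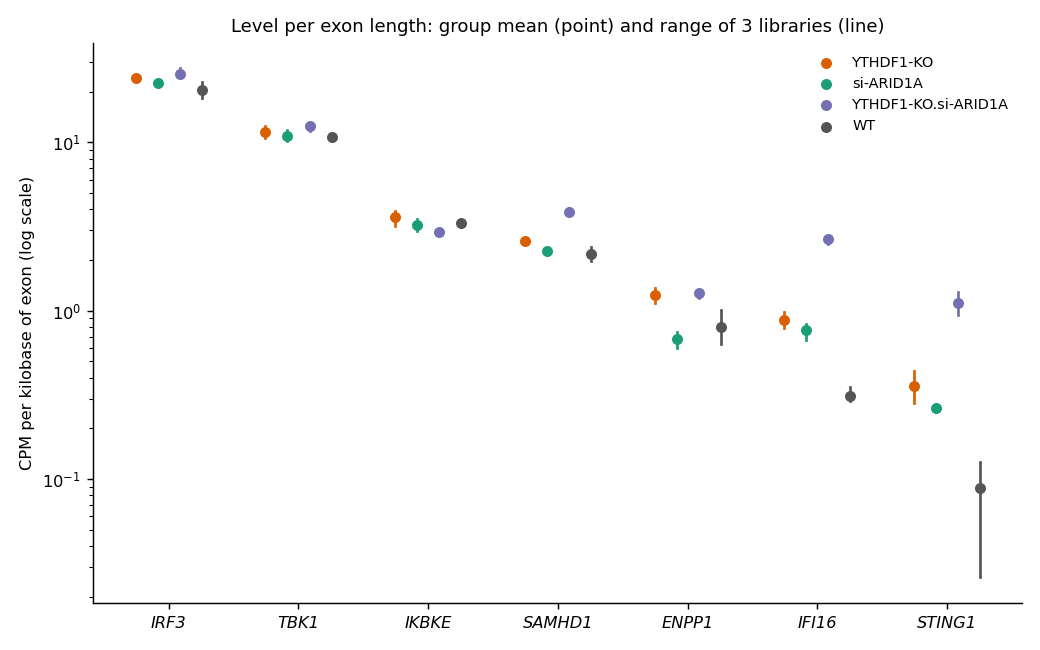
CPM per kilobase of exon (vertical axis, log scale) of the 7 members with a mean of at least 1 CPM, as group mean (point) and range of 3 libraries (line), by gene and group. IRF3 and TBK1 stay at the top in all 4 groups, and IFI16 and STING1 span the widest ranges, 0.311 to 2.66 and 0.0889 to 1.11.

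The genes whose pattern over the 12 libraries was most like each member were found by the root mean square (RMS) difference of centred log2 CPM, among 13434 genes with a mean of at least 1 CPM. For STING1 they were SAMD9L at 0.305, HLA-B at 0.389 and HCAR2 at 0.439, against a median of 1.39 over all candidates. SAMD9L averaged 8.55 CPM in YTHDF1-KO, 5.48 CPM in si-ARID1A, 21.9 CPM in the combined group and 1.91 CPM in WT. For IFI16 they were PARP9, HELZ2 and PARP14 at RMS differences of 0.204 to 0.279, against a median of 1.12. PARP9 averaged 20.3 CPM in YTHDF1-KO, 19.8 CPM in si-ARID1A, 65.1 CPM in the combined group and 9.04 CPM in WT. SAMHD1 was nearest to LPGAT1, ETV3 and SNRK, and ENPP1 to C3orf14, ETV5 and PTPN12. The members that varied little had neighbours that varied little too, with MPHOSPH8, YTHDF3 and IQCB1 nearest to TBK1, ZXDC, EEF2KMT and PHKA1 to IKBKE, and DNAJA1 (chromosome 9), NSFL1C and USF1 to IRF3.

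The other genes of the pathway were counted in 6 lists, whose counts are read against all genes tested, of which 19.6% were higher and 20.8% lower in YTHDF1-KO, 22.1% and 23.0% in si-ARID1A, and 25.6% and 25.9% in the combined group. Of 24 regulators of cGAS or STING, 4 were higher and 5 lower in YTHDF1-KO, 4 and 5 in si-ARID1A, and 7 and 9 in the combined group. Those higher were 16.7% of the list in YTHDF1-KO, 16.7% in si-ARID1A and 29.2% in the combined group, and those lower 20.8%, 20.8% and 37.5%. Genes named from the lists are mostly given in the comparison with WT where their p was smallest. Some also changed in other groups, in the same or the other direction. USP18, a protease that removes ISG15, was highest in the combined group, at 50.7 ± 1.72 CPM, and exceeded WT there (log2 2.08, adjusted p = 1.01e-15). NPC1, a lysosomal cholesterol transporter, rose by 1.01 in si-ARID1A (adjusted p = 1.29e-08), and SAR1A, a GTPase of vesicles that leave the endoplasmic reticulum, by 0.58 in the combined group (adjusted p = 3.37e-08). SURF4, a cargo receptor on chromosome 9, fell by 0.57 in YTHDF1-KO, the palmitoyltransferase ZDHHC7 fell by 0.44 in the combined group and the ligase RNF26 fell by 0.50 in si-ARID1A.

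Of 11 genes of cGAMP transport and hydrolysis, 9 were tested. Among these, 3 were higher and 2 lower in YTHDF1-KO, 1 and 4 in si-ARID1A, and 2 and 3 in the combined group. Those higher were 33.3% of the 9 in YTHDF1-KO, 11.1% in si-ARID1A and 22.2% in the combined group, and those lower 22.2%, 44.4% and 33.3%, shares in which 1 gene is 11.1%. The gap junction gene GJA1 rose by 1.89 in YTHDF1-KO (adjusted p = 1.39e-16), where it was at 228 ± 1.88 CPM against 61.6 ± 1.46 CPM in WT, and LRRC8C, a subunit of a volume-regulated anion channel, by 0.45. The lysosomal transporter SLC46A3 rose by 1.25 in si-ARID1A (adjusted p = 3.16e-06). LRRC8A (chromosome 9), the essential subunit of that channel, fell by 1.53 in si-ARID1A, as did SLC19A1, the reduced folate carrier that imports cGAMP, by 0.81. ABCC1, an exporter, fell by 0.97 in YTHDF1-KO (adjusted p = 9.13e-11).

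Of 17 nucleases of DNA and of RNA:DNA hybrids, 15 were tested. Among these, 3 were higher and 4 lower in YTHDF1-KO, 4 and 4 in si-ARID1A, and 3 and 6 in the combined group. In YTHDF1-KO these shares of the 15 lie near those of all genes. In si-ARID1A 26.7% were higher and 26.7% lower, and in the combined group fewer were higher than lower. DNASE2, the lysosomal DNase, rose in all 3, by 0.83 in the combined group (adjusted p = 6.5e-09). PLD3 and DNASE1L1 rose by 0.37 and 0.53 in si-ARID1A. FEN1, the flap endonuclease, fell by 0.58 in si-ARID1A, and RNASEH2C, a subunit of RNase H2, fell by 0.73 in the combined group. RNASEH1 (chromosome 2) fell by 0.41 in YTHDF1-KO and 0.37 in the combined group, and rose by 0.25 in si-ARID1A.

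Of 19 other DNA sensors and inflammasome genes, 13 were tested. Among these, 4 were higher and 3 lower in YTHDF1-KO, 4 and 7 in si-ARID1A, and 4 and 7 in the combined group. That is 30.8% higher in each group and 23.1%, 53.8% and 53.8% lower. No WT library of PYCARD or CASP1 reached the level that the filter asks for, so both entered the test through changed groups, and of the other 11 the numbers higher were 2, 3 and 2. PYCARD, which encodes the inflammasome adaptor ASC, was at 2.96 ± 0.0983 CPM in the combined group against 0.133 ± 0.115 CPM in WT (log2 4.57, adjusted p = 2.21e-09), and the pore former GSDMD rose by 1.26 there (adjusted p = 5.22e-10). IL18, an interleukin that inflammasomes process, rose by 0.59 in si-ARID1A and fell by 0.54 in YTHDF1-KO and 0.58 in the combined group. XRCC5, the Ku80 subunit of DNA-dependent protein kinase, fell by 2.12 in the combined group, 2.01 in si-ARID1A and 0.59 in YTHDF1-KO. LRRFIP1, on chromosome 2 as XRCC5 is, fell by 1.08, 0.34 and 0.87 in the same order of groups. HMGB1 fell by 0.59 in si-ARID1A. The 1231 tested genes of chromosome 2 had a median log2 change of -0.41 in YTHDF1-KO, 0.01 in si-ARID1A and -0.42 in the combined group, and the 712 of chromosome 9 of -0.36, -0.41 and -0.38. No member lies on either chromosome.

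Of 18 kinase adaptors and transcription factors downstream of STING, 7 were higher and 2 lower in YTHDF1-KO, 7 and 2 in si-ARID1A, and 8 and 4 in the combined group. The shares higher were 38.9%, 38.9% and 44.4%, and those lower 11.1%, 11.1% and 22.2%. IRF7, which drives later interferon transcription, was at 10.6 ± 0.464 CPM in YTHDF1-KO, 5.66 ± 1.06 CPM in si-ARID1A, 37.5 ± 2.1 CPM in the combined group and 1.57 ± 0.283 CPM in WT (log2 4.58 in the combined group, adjusted p = 3.21e-18). IRF1 rose by 1.71 in the combined group, 0.73 in YTHDF1-KO and 0.82 in si-ARID1A. OPTN, an adaptor of TBK1, rose by 0.68 in si-ARID1A, 0.36 in YTHDF1-KO and 0.63 in the combined group. STAT6 fell by 0.69 in the combined group, 0.35 in YTHDF1-KO and 0.67 in si-ARID1A. DDX3X fell by 0.36 in si-ARID1A. IRF5 fell by 0.55 in YTHDF1-KO and rose by 0.32 in si-ARID1A.

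The list of 12 transcripts that IRF3 is known to induce, among them interferons, was higher in 12 of 12 in YTHDF1-KO, 7 of 12 in si-ARID1A and 12 of 12 in the combined group. Of these 12, IFNB1, IFNL1, IFNL2, IFNL3 and CXCL10 had 0 counts in WT and 0 to 8 in si-ARID1A, and CCL5 and RSAD2 did not reach the filter's level in all 3 WT libraries. These 7 passed the filter only through groups where they are high, so their calls are no support. The other 5, IFIT1, IFIT2, IFIT3, ISG15 and OASL, were higher in all 3 changed groups, where 19.6%, 22.1% and 25.6% of all genes were. Of all genes tested, 9.40% were higher in all 3. The list was chosen with earlier results of these data known, so the calls of these 5 are given as values only. OASL, an antiviral protein related to the OAS synthetases, averaged 102 ± 4.0 CPM in YTHDF1-KO, 2.39 ± 0.190 CPM in si-ARID1A, 278 ± 19.1 CPM in the combined group and 0.911 ± 0.197 CPM in WT. IFIT1 and IFIT2, which act on viral RNA, rose by 8.01 and 8.76 in the combined group. The transcripts of this list are read out by other pathways too, among them RNA sensing and interferon receptors, and which of them acted here was not tested. In the same groups, CGAS had 12 counts over the 3 YTHDF1-KO libraries, 58 over those of si-ARID1A, 10 over those of the combined group and 4 over those of WT. The part of CGAS in the transcripts of this list was not tested.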

How the data were processed

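Per the labels' protocols, total RNA was made into stranded libraries. Per the submitters' processing notes, the tools were edgeR 3.32.1, featureCounts 2.0.1, STAR 2.7.0d and Trim Galore 0.6.6, and the build GRCh38. Raw gene counts, whole numbers with no normalization, were deposited as a single table. The annotation release, the strand setting and the treatment of reads on overlapping genes are not given in the sources used here. Of 60617 identifiers, 60596 had a symbol, and 58542 were placed by GENCODE 29.

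Groups came from the genotype labels. The analysis used edgeR 4.0.16, with limma 3.58.1, under R 4.3.3: 1 fit of all 12 libraries with 1 coefficient per group, filterByExpr (18524 genes tested, 42093 left out), TMM scaling (factors 0.912 to 1.055) and edgeR's robust quasi-likelihood test (two-sided). P-values were adjusted by Benjamini-Hochberg over all genes tested, at a threshold of 0.05. Replicate spread, as the biological coefficient of variation, was 9.44%. Standard errors come from log2 CPM with a prior count of 2, not from the fit that gave the log2 changes. At low counts, as for CGAS and for STING1 in WT, that prior shrinks differences. These standard errors may be too small for the changes beside them. The fit was also run on simulated counts, which had the same dispersion for all genes and no excess of even counts. That run therefore does not vouch for members with few counts.

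Named genes were all members, YTHDF1, ARID1A, of each list the up to 3 genes a direction with the smallest p against WT and a mean of at least 1 CPM, and the 3 genes most like each member. The members and lists were chosen with earlier results of these data known. ATRIP, BCL2L12, marker genes, list genes named for how they passed the filter and the AIM2 window were added after their values were seen. Motifs were searched in RefSeq promoters (GRCh38.p14).

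Alternatives were other scalings, other filters, DESeq2 1.42.0, fits of the compared groups alone, a replicate block, no robust estimation and leaving out each library. Halved counts and the comparison of YTHDF1-KO with si-ARID1A were added after the data were seen. Depth was 30220717 to 45042635 counts a library, and 3 counts in a library are 0.0663 to 0.0942 CPM. Some blood markers are not reported here.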

Additional observations from a re-analysis of the deposited data

Results flagged for a closer look

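For SAMHD1 the effect of si-ARID1A differed between YTHDF1-KO and WT cells, by edgeR's quasi-likelihood test of the interaction. It differed by 0.53 on the log2 scale (adjusted p = 0.00305): with si-ARID1A it was 0.58 higher in YTHDF1-KO cells, with 3 of 3 combined libraries above all YTHDF1-KO libraries, and 0.05 higher than WT in cells without the knockout. ARID1A and YTHDF1 RNA were less reduced in the combined group than in the groups with 1 change, and the part of this was not tested. CGAS had an interaction of -4.24 (adjusted p = 0.048), which is given as a value only: with si-ARID1A it was at 10 counts over 3 combined libraries against 12 over those of YTHDF1-KO, and at 58 counts over 3 si-ARID1A libraries against 4 over those of WT. It rests on few counts, CGAS passed the filter only through its si-ARID1A libraries, and the value passed the threshold in 9 of 20 settings, with adjusted p up to 0.267.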

How the results depend on the processing

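STING1 and IFI16 kept their calls in 23 of 23 settings in each comparison with WT and of the combined group with either single change, and SAMHD1 kept its interaction in 22 of 22. For STING1 against WT this is no support, as STING1 passed the filter on low counts only through the changed groups. The number of members called for the interaction, 2, was 1 with a filter of at least 1 CPM in 3 libraries, with a replicate block and with halved counts, and ran from 1 to 2 when 1 library was left out. The number called between YTHDF1-KO and si-ARID1A, 2, was 1 with that filter and with halved counts. It was also 1 where leaving out a library cost CGAS its call. SAMHD1 gained a call in this comparison with library totals (adjusted p = 0.0357) and without WT replicate 3 (0.0488). CGAS was not tested under that filter or with halved counts. For CGAS, interaction, the replicate block gave -4.29 (adjusted p = 0.0707), and for IKBKE, YTHDF1-KO.si-ARID1A vs YTHDF1-KO, it gave -0.31 (adjusted p = 0.052). Same-numbered libraries of different groups had correlations of -0.162 to 0.126, so the numbers are not taken to pair them.

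Signs that turned all belonged to values past no threshold. For IKBKE, si-ARID1A vs WT, library totals gave 0.0066, and for TBK1, si-ARID1A vs WT, leaving out 1 library gave -0.027 (si-ARID1A replicate 3) to 0.077. For CGAS, YTHDF1-KO.si-ARID1A vs YTHDF1-KO, leaving out 1 library gave -0.86 to 0.77, with 0.77 without YTHDF1-KO replicate 3 and 0.072 without combined replicate 2. For ENPP1, YTHDF1-KO.si-ARID1A vs YTHDF1-KO, the range was -0.032 (without YTHDF1-KO replicate 2) to 0.11. STING1, interaction, ran from -0.38 to 0.51, with -0.38 without WT replicate 2, -0.11 without WT replicate 3, -0.067 without YTHDF1-KO replicate 3 and -0.050 without combined replicate 1. IRF3, interaction, ran from -0.13 to 0.019, the last without WT replicate 3. The cause was not tested. Of the members' values under alternatives, 1151 kept direction and side of the threshold, 34 lost a call, 12 gained one and 10 turned sign. CGAS, AIM2 and, in WT, STING1 are limited by depth.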
